A study of Homo sapiens with 9 samples.

Results

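The genes described here are 50 genes for nucleolar proteins and pre-rRNA processing factors, taken by name for their known roles out of the 57338 genes of the deposited table. No measured value was used as a rule for the choice, but earlier results of these data were known when it was made. All 50 were matched to an Ensembl identifier. The 9 libraries are labelled as RNA of HEK293T cells, a human embryonic kidney line, transfected with a pcDNA3.1 plasmid for EGFP alone (empty vector), for EGFP fused to human protamine 1 (hPRM1) or for EGFP fused to human protamine 2 (hPRM2, made from the full-length transcript). Per the labels and the authors' methods, cells of all 3 groups carried EGFP and were sorted for high EGFP signal 3 days after transfection. There were 3 libraries per group, numbered as replicates 1 to 3. The sorted cells are a transient pool and not a clone, and the labels do not say whether replicates came from separate transfections, so that p-values measure the spread between these libraries, which may be technical.

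The nucleolus is the site where RNA polymerase I transcribes the ribosomal DNA into a long pre-rRNA. Small nucleolar ribonucleoproteins modify that transcript: the box C/D class guides methylation of riboses and the box H/ACA class guides pseudouridylation. A large particle called the small subunit processome then releases the precursor of 18S rRNA, while a series of other particles assembles and trims the rRNAs of the large subunit. The genes for these factors are known to be highly expressed in dividing cells, and many of them are known targets of MYC, a transcription factor that binds the E-box.

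The libraries labelled hPRM1 went against their label. PRM1 was listed at 0 in all 9 libraries, whereas PRM2 was at 71224, 60050 and 36130 RPKM in the hPRM2 libraries and at 0 in the others. The 4 haemoglobin genes summed to between 2.06e+06 and 2.266e+06 RPKM in the libraries labelled hPRM1, against at most 17.98 with the empty vector and 7.26 with hPRM2. In the same libraries 6 of 7 neutrophil and monocyte markers (sum 5482 to 6334, FCGR3B at 0) and 7 of 7 lymphocyte markers (sum 500.6 to 569.2) were above 1 RPKM. The lymphocyte markers were all at 0 in the other 6 libraries. All 6 erythroid markers (sum 905.3 to 1451) and 3 of 4 platelet markers (sum 312.4 to 543.8) were above 1 RPKM too. Of 10 HEK293T markers, PAX2, LIN28B, IGF2BP1, NEFM and NEFL were at 0 in all 3 libraries labelled hPRM1, and IGF2BP3, CDH2, KRT8 and KRT18 were each below 1 RPKM there. VIM, which many cell types express, was at 145.4 to 206.9 RPKM and made up nearly all of the list's sum of 146.8 to 207.9 RPKM in these libraries. The list summed to 747.9 to 821.6 RPKM with the empty vector and to 582.1 to 625.9 RPKM with hPRM2. MKI67, TOP2A and MYC, which mark proliferating cells, together gave 2.048 to 4.387 RPKM, against 741 to 1088 with the empty vector and 265.5 to 1015 with hPRM2. The part of these transcripts in the results below was not tested, and values of these 3 libraries are given as values under the hPRM1 label. Fewer cells of a type and less RNA per cell cannot be told apart in such bulk samples, and the libraries labelled hPRM1 come from another library number series than the other 6, which means that batch and condition of these libraries cannot be told apart. The estimated reads on genes were 7930000 to 10790000 for the empty vector, 4210000 to 5860000 for the libraries labelled hPRM1 and 1270000 to 2650000 for hPRM2, and hPRM2 replicate 1 listed only 9652 genes above 0, against 14353 to 16705 in the other 8 libraries.

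The promoters of these genes were searched for motifs, which were not used to choose the genes, and an E-box was present in some and absent from most. RefSeq promoter windows on GRCh38.p14, from 250 bases before to 50 bases after a gene's start, were at hand for 43 of the 50 genes (50 windows). NOP58, NOLC1, NOL10, BOP1, DDX18, RRP12 and TCOF1 had none. The E-box CACGTG, the palindrome bound by MYC and related factors, was found in 19 of the 43 genes (44.2%), against 8.77% of all 27305 genes with a window and 12.5% of the 10550 that reached 1 RPKM in at least 3 libraries. Of the 21 E-boxes, 18 began within 50 bases of the start. The following windows of 30 bases show E-boxes close to the start in members of each role, with the E-box in capitals and the strand of the gene read 5′ to 3′.
FBL (chr19:39846356-39846385, minus strand): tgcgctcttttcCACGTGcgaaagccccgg
NOP10 (chr15:34343130-34343159, minus strand): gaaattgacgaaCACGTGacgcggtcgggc
GAR1 (chr4:109815781-109815810, plus strand): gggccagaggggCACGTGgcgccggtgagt
MYBBP1A (chr17:4555340-4555369, minus strand): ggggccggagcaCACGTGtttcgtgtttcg
UTP4 (chr16:69132621-69132650, plus strand): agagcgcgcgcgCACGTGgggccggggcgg
WDR43 (chr2:28894658-28894687, plus strand): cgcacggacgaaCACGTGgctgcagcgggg
RRP9 (chr3:51941892-51941921, minus strand): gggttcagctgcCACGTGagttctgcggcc
BYSL (chr6:41921515-41921544, plus strand): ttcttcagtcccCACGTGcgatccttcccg
PES1 (chr22:30591880-30591909, minus strand): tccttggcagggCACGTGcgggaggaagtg
NOP2 (chr12:6568242-6568271, minus strand): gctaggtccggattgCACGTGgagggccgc
GNL3 (chr3:52686026-52686055, plus strand): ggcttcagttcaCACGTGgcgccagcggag
DDX21 (chr10:68956604-68956633, plus strand): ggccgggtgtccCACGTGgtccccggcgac

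The flanks of these E-boxes differed from gene to gene, and only the letters of the E-box itself were shared, by construction. The ETS core CCGGAAGT, searched on both strands like the other motifs, was found in 10 of the 43 genes (23.3%), against 4.95% of all genes and 9.83% of the genes that reached 1 RPKM. CCAAT, the box bound by NF-Y, was about as frequent in the members (20 genes, 46.5%) as in all genes (39.7%) and in genes that reached 1 RPKM (43.1%). The NRF1 palindrome was found in 3 members (6.98%, against 1.52% and 2.71%) and the CGCG palindrome in 2 (4.65%, against 0.505% and 1.04%). These matches are letters in a window and not bound sites, and genes with several windows had more chances of a match.

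With the empty vector the members were among the more highly expressed genes. Their median stood at the 82.36 to 84.25 percentile of 14901 genes, and 46 to 48 of the 50 had at least 10 RPKM. RPKM of 3′-end libraries divide by a length that the reads do not follow, so ranks between genes are loose. The medians were at the 80.93 to 84.83 percentile with hPRM2 but at the 61.61 to 64.97 percentile in the libraries labelled hPRM1, where 15 or 16 members had at least 10 RPKM and 7 to 11 were below 1. The members summed to 7619.76, 8299.63 and 6829.28 RPKM with the empty vector (7583 ± 736, SD, n = 3), to 609.2, 804 and 665 RPKM in the libraries labelled hPRM1 (692 ± 100.1) and to 8915, 7864 and 7672 RPKM with hPRM2 (8150.0 ± 669). The libraries labelled hPRM1 lay far below the others in this sum, by 11.0-fold against the empty vector, whereas hPRM2 and the empty vector overlapped. In two-sided exact permutation tests of the sum, p was 0.1 for each comparison with the libraries labelled hPRM1, the smallest that 3 libraries against 3 can give, and 0.4 for hPRM2 against the empty vector (0.15, 0.15 and 0.4 after Benjamini-Hochberg adjustment over the 3 tests).

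RPKM are shares of a library, so the values were also rescaled by median-of-ratios factors from the 7274 genes above 0 in all 9 libraries. On that scale the sum was 1.93-fold lower in the libraries labelled hPRM1 than with the empty vector and 1.60-fold higher with hPRM2 than with the empty vector, with p = 0.1 in each exact permutation test. The sum for hPRM2 therefore changed its relation to the empty vector with the scaling, since the groups overlapped in RPKM and did not overlap after rescaling.

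**Figure D1:**
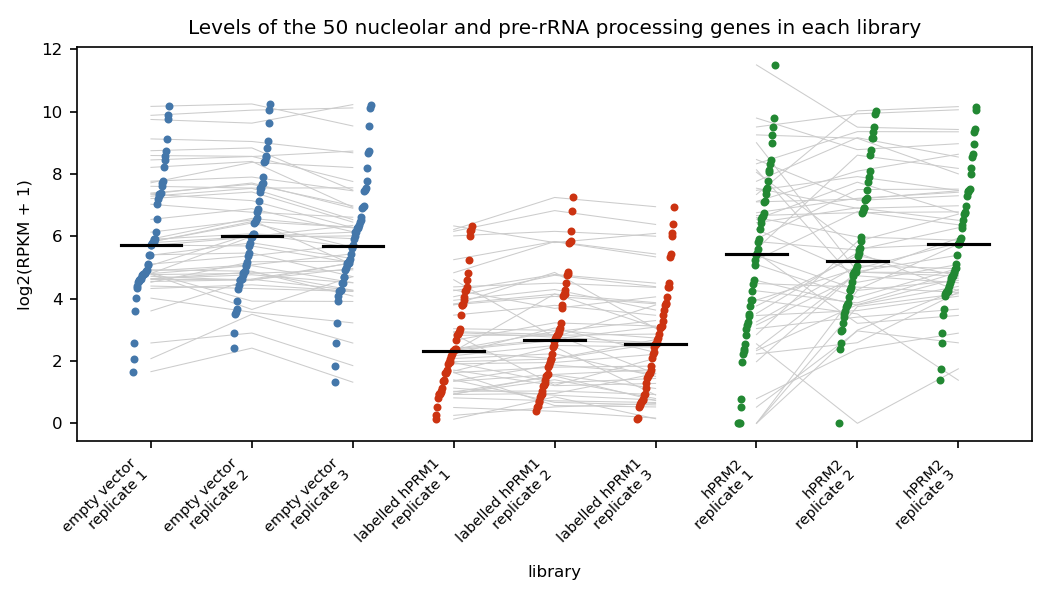
Each point is 1 of the 50 members in 1 library, sorted by level, as log2(RPKM + 1), with grey lines joining a member across the 3 replicates of a group and black bars at the median of a library. All 3 libraries labelled hPRM1 lie lower than the other 6, and the grey lines cross most between hPRM2 replicate 1 and the other hPRM2 replicates.

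The members had a similar order by level in the 3 groups. Spearman's rho over the 50 members, given as a description, was 0.904 for hPRM2 and 0.879 for the libraries labelled hPRM1 against the mean of the empty vector, and 0.801 between these groups. Within groups it ran from 0.915 to 0.968 for the empty vector and from 0.91 to 0.932 for the libraries labelled hPRM1. In the hPRM2 group replicates 2 and 3 gave 0.948, but replicate 1 gave 0.771 and 0.789 with them. The median coefficient of variation of a member was 22.9% with the empty vector, 27.6% in the libraries labelled hPRM1 and 50.3% with hPRM2. In hPRM2 replicate 1, 25 members were over 2-fold away from both other replicates, 18 below and 7 above. As examples chosen after their values were seen, NOL11 was at 512 RPKM there against 28.2 and 41.1, and DDX56 at 280.2 against 22.0 and 33.2, while NOL10 was at 2.93 against 27.9 and 25.5. The members listed at 0 were RRP9, FTSJ3 and PNO1 in hPRM2 replicate 1 and NOL6 in hPRM2 replicate 2, where a value of 0 allows up to 3 reads (1.13 and 2.36 CPM, counting error only).

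In the libraries labelled hPRM1, 49 of 50 members were called lower than with the empty vector and none higher. A call required an adjusted p of 0.05 or less and a 2-fold change or more (limma on log2(RPKM + 1), Benjamini-Hochberg over 13588 genes). Of all genes tested, 62.5% were called lower and 12.9% higher in this comparison. The members' median log2 fold change was -3.23 (quartiles -3.76 and -2.82), against -1.72 over all genes. On this scale 34 members were at least 8-fold lower, as were 22.5% of all genes tested. The groups did not overlap in 50 of 50 members, which held for 80.8% of all genes tested. UTP15, UTP20, WDR3 and BYSL were below 1 RPKM in every library labelled hPRM1. The filter, at least 1 RPKM in at least 3 of the 6 libraries, kept them only through the empty vector libraries. Their non-overlap and lower direction were therefore fixed in advance, as non-overlap was for any gene kept through 1 group alone. After rescaling, 28 members were called lower and 1, TCOF1, higher, against 25.1% and 32.6% of all genes, with a median of -1.11 for the members and 0.14 for all genes. The 28 called lower on both scales were called lower under each of the other 15 alternatives that tested them as well. Counting the rescaling, UTP15, WDR3 and BYSL were tested under only 12, 12 and 13 alternatives. Their values under the hPRM1 label were all below 1 RPKM, so they passed the filter on low values through the empty vector libraries alone. Fits that left out an empty vector library therefore did not test these genes.

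With hPRM2 the same test called 1 of 50 members. RRP12 was called higher and none lower, while 1.36% of the 13126 genes tested were called higher and 1.37% lower. An unadjusted p under 0.05 was reached by 9 members and by 3351 of the 13126 genes. The members' median log2 fold change was -0.41, against -0.72 over all genes, and 0.09 against -0.20 after rescaling, when again RRP12 alone was called higher (1.63% of all genes, and 0.442% lower). The groups did not overlap in 15 members, 10 lower and 5 higher, as in 35.9% of all genes tested. The comparisons with the empty vector share its 3 libraries, so that their values are given side by side without a test of likeness.

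**Figure D2:**
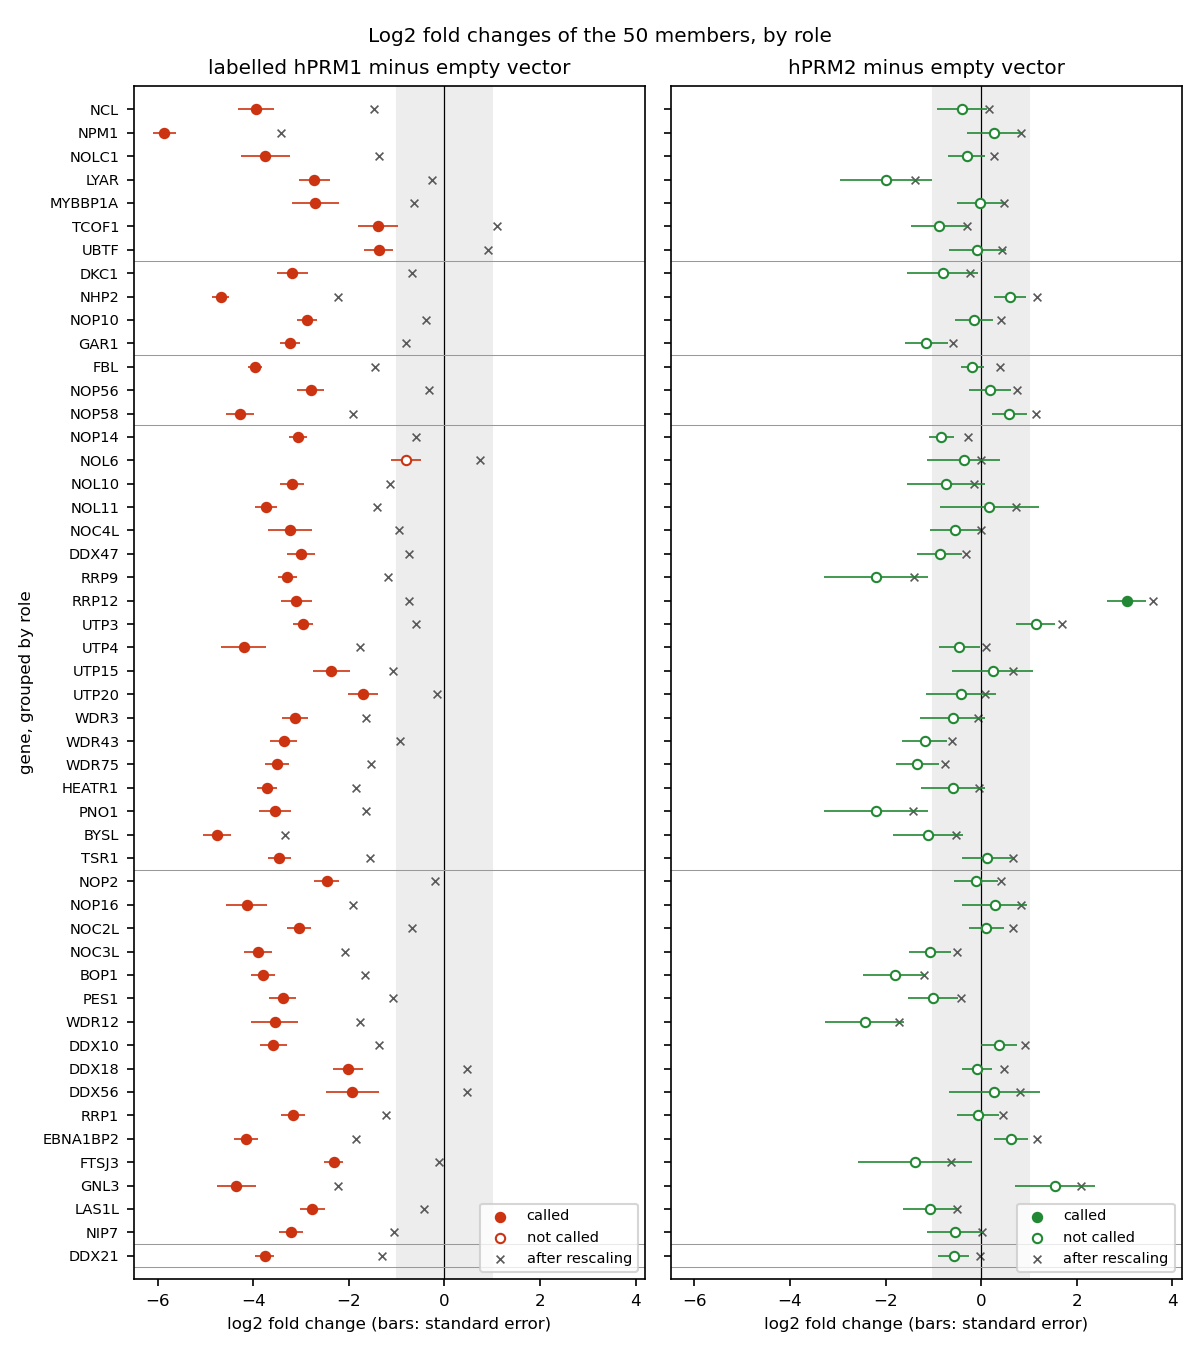
Log2 fold change of each member against the empty vector, on log2(RPKM + 1), for the libraries labelled hPRM1 (left) and hPRM2 (right), grouped by role from nucleolar structure (top) through box H/ACA, box C/D, small subunit and large subunit to DDX21, with bars for the standard error, filled points for calls, crosses for values after rescaling and grey for changes under 2-fold. Every point on the left lies below 0, with NOL6 open at -0.80, but 5 crosses lie above 0 there, and RRP12 is the 1 filled point on the right.

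The first role is nucleolar structure and ribosomal DNA transcription, with 7 members, all 7 called lower in the libraries labelled hPRM1 and none called with hPRM2. Over all genes 62.5% were called lower under the hPRM1 label, and 1.37% lower and 1.36% higher with hPRM2. NPM1 encodes nucleophosmin, an abundant protein of the granular outer part of the nucleolus, and is placed by GENCODE 29 on chromosome 5 (GRCh38), from 171387116 to 171411137. It had 859.8, 793 and 1197 RPKM with the empty vector, 18.4, 11.9 and 15.6 under the hPRM1 label and 2896, 725 and 688 with hPRM2. On the log2 scale the libraries labelled hPRM1 differed by -5.86 ± 0.24 (SE, adjusted p = 4.59e-06), the largest drop of all members, and by -3.41 after rescaling. With hPRM2 its log2 fold change was 0.27 ± 0.57 (SE, adjusted p = 0.773), and replicate 1 stood alone at 2896 RPKM. NCL, which encodes nucleolin, another major nucleolar RNA-binding protein, had 429, 456 and 178 RPKM with the empty vector, 19.8, 21.6 and 19.6 under the hPRM1 label and 138, 272 and 396 with hPRM2. The libraries labelled hPRM1 were close to each other and far below the rest, at -3.94 ± 0.37 (SE, adjusted p = 8.99e-05) on the log2 scale (-1.48 after rescaling), while hPRM2 and the empty vector overlapped.

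UBTF and TCOF1 fell least among the called members, and both changed sign with the scaling. UBTF encodes UBF, which binds ribosomal DNA and recruits the polymerase I machinery, and had 27.3, 14.1 and 14.03 RPKM with the empty vector, 6.09, 6.08 and 6.28 under the hPRM1 label and 7.91, 25.6 and 21.8 with hPRM2. The libraries labelled hPRM1 differed by -1.38 ± 0.30 (SE, adjusted p = 0.0043) on the log2 scale, but by 0.91 after rescaling (adjusted p = 0.0323, under 2-fold). TCOF1 encodes treacle, which works with UBF at the ribosomal DNA, and had 296, 338 and 121 RPKM with the empty vector, 70.5, 112 and 82.4 under the hPRM1 label and 59.3, 180.2 and 182 with hPRM2. It fell in RPKM, at -1.39 ± 0.42 (SE, adjusted p = 0.0183) on the log2 scale, but was the 1 member called higher after rescaling, at 1.10 (adjusted p = 0.0373). With hPRM2 the log2 fold changes were -0.08 for UBTF and -0.87 for TCOF1, and neither passed the test. NOLC1, a chaperone of small nucleolar ribonucleoproteins, had 162, 141 and 76.6 RPKM with the empty vector, 3.96, 16.8 and 7.44 under the hPRM1 label and 85.6, 119.7 and 90.4 with hPRM2. It was called lower in the libraries labelled hPRM1 at -3.74 ± 0.52 (SE, adjusted p = 0.000521), and -1.37 after rescaling. MYBBP1A, a nucleolar MYB-binding protein, was at -2.70 and LYAR, a nucleolar zinc-finger protein, at -2.72. Neither was called after rescaling, at -0.64 and -0.27. MYBBP1A itself was at 26.5, 11.6 and 25.1 RPKM with the empty vector, 2.19, 4.49 and 0.877 under the hPRM1 label and 21.4, 19.7 and 17.4 with hPRM2. LYAR had 155, 185 and 91.8 RPKM with the empty vector, 15.7, 25.9 and 19.9 under the hPRM1 label and 6.19, 56.1 and 104 with hPRM2, and its hPRM2 values were wide apart and overlapped those under the hPRM1 label.

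The 3 core proteins of box C/D particles and the 4 of box H/ACA particles were all called lower in the libraries labelled hPRM1, as were 62.5% of all genes. FBL encodes fibrillarin, the methyltransferase of the box C/D particle, and is on chromosome 19, from 39834458 to 39846414. It varied little within groups, with 943, 1058 and 1112 RPKM with the empty vector, 63.6, 70.5 and 63.2 under the hPRM1 label and 728, 975 and 1067 with hPRM2. Its log2 fold change against the empty vector was -3.96 ± 0.15 (SE, adjusted p = 3.71e-06) under the hPRM1 label, and -1.46 after rescaling. With hPRM2 it was -0.18 ± 0.25 (SE, adjusted p = 0.647), which did not pass the test. NOP56 and NOP58 are the paired scaffold proteins of the same particle. NOP56 had 385, 378 and 216 RPKM with the empty vector, 37.1, 56.1 and 42.2 under the hPRM1 label and 217, 573 and 372 with hPRM2. NOP58 had 147, 171 and 86.8 RPKM with the empty vector, 6.55, 5.80 and 5.01 under the hPRM1 label and 177, 241 and 176 with hPRM2. In the libraries labelled hPRM1 NOP58 was at -4.27 ± 0.29 (SE, adjusted p = 2.32e-05) and NOP56 at -2.80 ± 0.29 (SE, adjusted p = 0.000133), and after rescaling NOP58 was still called lower (-1.92) but NOP56 was not (-0.32, adjusted p = 0.296). All 3 NOP58 values with hPRM2 were above those with the empty vector, at 0.59 ± 0.36 (SE, adjusted p = 0.332), which did not pass the test.

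DKC1 encodes dyskerin, the pseudouridine synthase of the box H/ACA particle, and had 1151, 1214 and 744 RPKM with the empty vector, 73.5, 151 and 123 under the hPRM1 label and 161, 1042 and 1145 with hPRM2. Its hPRM2 replicate 1 was 7.10-fold below replicate 3. DKC1 was called lower in the libraries labelled hPRM1 at -3.18 ± 0.32 (SE, adjusted p = 0.000122), but not after rescaling (-0.68, adjusted p = 0.0647). NHP2, a small protein of the same particle, had 349, 377 and 425 RPKM with the empty vector, 13.0, 15.8 and 13.3 under the hPRM1 label and 887, 439 and 501 with hPRM2. NHP2 was lowest of the 4 in the libraries labelled hPRM1, at -4.68 ± 0.17 (SE, adjusted p = 3.72e-06) and -2.23 after rescaling, and its hPRM2 values all lay above the empty vector at 0.60 ± 0.33 (SE, adjusted p = 0.293), which did not pass the test. NOP10, a further subunit, had 558, 527 and 409.6 RPKM with the empty vector, 79.7, 54.7 and 67.3 under the hPRM1 label and 610.1, 566 and 256 with hPRM2. GAR1, the last of the 4, had 129.6, 108 and 96.9 RPKM with the empty vector, 10.1, 12.8 and 10.1 under the hPRM1 label and 73.8, 26.8 and 60.5 with hPRM2. Both were called lower in the libraries labelled hPRM1 (log2 fold changes -2.87 and -3.23) and not after rescaling (-0.38 and -0.81). GAR1 with hPRM2 lay wholly below the empty vector at -1.15 ± 0.45 (SE, adjusted p = 0.175), which did not pass the test.

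Ratios between members within a library, which do not depend on how the library is scaled, were set side by side for 5 pairs. NOP58 over NOP56 was 0.382, 0.451 and 0.402 with the empty vector, 0.177, 0.103 and 0.119 under the hPRM1 label and 0.817, 0.42 and 0.474 with hPRM2. NHP2 over NOP10 was 0.626, 0.715 and 1.04 with the empty vector, 0.163, 0.29 and 0.197 under the hPRM1 label and 1.45, 0.776 and 1.96 with hPRM2. NPM1 over TCOF1 was 2.91, 2.35 and 9.86 with the empty vector, 0.261, 0.106 and 0.19 under the hPRM1 label and 48.8, 4.02 and 3.78 with hPRM2. In these 3 pairs the libraries labelled hPRM1 lay below the other 6, as for NPM1 over NCL, at 0.551 to 0.931 against 1.74 to 21. PES1 over BOP1 was the exception, at 1.87 to 2.76 under the hPRM1 label, above the 1.22 to 1.53 of the empty vector and overlapping the 2.22 to 3.59 of hPRM2. These pairs were chosen after their values were seen, and no test was made of them.

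**Figure D3:**
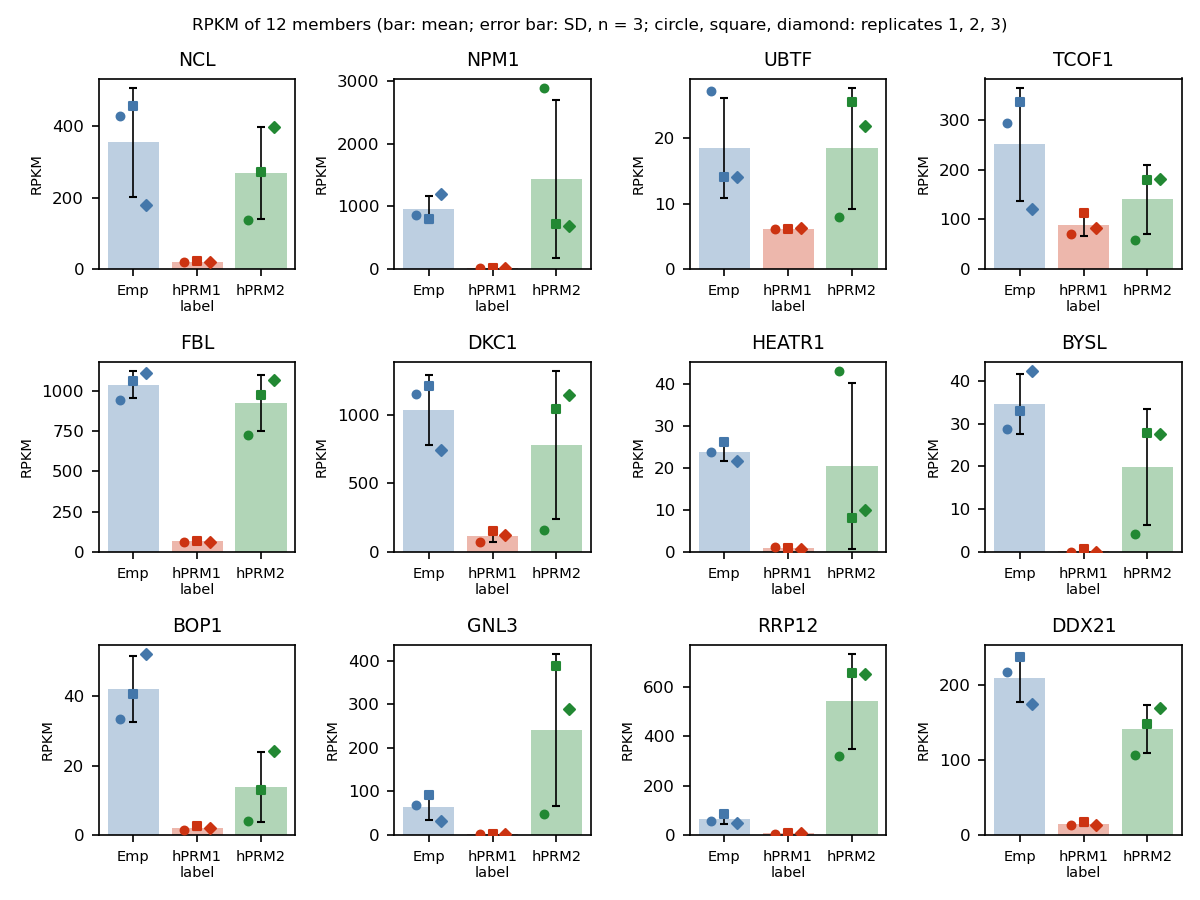
RPKM of 12 members on linear axes that start at 0, with bars for the mean, error bars for the SD (n = 3) and a circle, square and diamond for replicates 1, 2 and 3. The libraries labelled hPRM1 are below the empty vector in all 12 panels, RRP12 is above it in all 3 hPRM2 libraries, and hPRM2 replicate 1 stands apart in NPM1, DKC1, HEATR1, BYSL and GNL3.

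Of the 19 members of the small subunit processome and the 18S pathway, 18 were called lower in the libraries labelled hPRM1 (median -3.23 on the log2 scale) and 11 after rescaling (median -1.14). Over all genes 62.5% were called lower (median -1.72), and 25.1% after rescaling (median 0.14). The exception was NOL6, a processome protein, with 2.15, 4.33 and 1.496 RPKM with the empty vector, 1.04, 1.05 and 0.899 under the hPRM1 label and 4.86, 0 and 2.36 with hPRM2. Its libraries labelled hPRM1 were all below the empty vector, but at -0.80 ± 0.32 (SE, adjusted p = 0.0524) it missed the threshold, and it stood at 0.75 after rescaling (adjusted p = 0.0467, under 2-fold). HEATR1, a very large scaffold protein of the subcomplex that binds the start of the pre-rRNA, had 24.0, 26.2 and 21.8 RPKM with the empty vector, 1.19, 0.869 and 0.677 under the hPRM1 label and 43.3, 8.24 and 10.01 with hPRM2. HEATR1 fell under the hPRM1 label, at -3.71 ± 0.21 (SE, adjusted p = 1.11e-05), and -1.85 after rescaling. UTP4, of the same subcomplex and also known as cirhin, had 209.7, 331 and 295 RPKM with the empty vector, 13.0, 27.7 and 7.27 under the hPRM1 label and 352, 141 and 157 with hPRM2. UTP15, a further partner, had 3.21, 10.3 and 4.96 RPKM with the empty vector, 0.422, 0.305 and 0.123 under the hPRM1 label and 14.6, 10.4 and 1.61 with hPRM2. UTP4 was called lower at -4.20 ± 0.46 (SE, adjusted p = 0.000175) and UTP15 at -2.36 ± 0.39 (SE, adjusted p = 0.0012), and both again after rescaling (-1.77 and -1.08). UTP20, a late-joining scaffold, had 4.97, 6.45 and 2.61 RPKM with the empty vector, 0.761, 0.65 and 0.589 under the hPRM1 label and 0.73, 4.21 and 6.43 with hPRM2. It had 1 of the smaller drops, -1.71 ± 0.31 (SE, adjusted p = 0.00204), and was near 0 after rescaling (-0.16).

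WDR43, which is also a processome subunit, had 163, 209 and 119 RPKM with the empty vector, 14.4, 18.6 and 11.4 under the hPRM1 label and 37.0, 110.2 and 81.7 with hPRM2. WDR43 was called lower under the hPRM1 label at -3.37 ± 0.28 (SE, adjusted p = 5.31e-05), with -0.93 after rescaling, which is under 2-fold. RRP9, the U3 snoRNA-binding protein, had 26.3, 27.1 and 29.4 RPKM with the empty vector, 1.54, 1.97 and 2.31 under the hPRM1 label and 0, 12.4 and 16.9 with hPRM2. RRP9 fell under the hPRM1 label, at -3.29 ± 0.20 (SE, adjusted p = 1.53e-05), and -1.19 after rescaling. NOP14, a processome scaffold, had 194, 186 and 187 RPKM with the empty vector, 18.1, 26.4 and 21.6 under the hPRM1 label and 101, 107 and 109 with hPRM2, with the smallest spread of all members among the empty vector libraries. NOP14 was called lower under the hPRM1 label at -3.06 ± 0.19 (SE, adjusted p = 1.64e-05), and -0.60 after rescaling, which is under 2-fold. With hPRM2 its 3 values were again close to each other and below the empty vector, at -0.83 ± 0.27 (SE, adjusted p = 0.126), which did not pass the test.

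Late factors of the small subunit are bound to the pre-40S particle. BYSL (bystin) had 28.6, 32.9 and 42.4 RPKM with the empty vector, 0.0959, 0.801 and 0.108 under the hPRM1 label and 4.24, 27.8 and 27.6 with hPRM2. Its 3 values under the hPRM1 label were all under 1 RPKM and differed by up to 8.35-fold among themselves, so that no fold between means is given. Its log2 fold change was -4.76 ± 0.29 (SE, adjusted p = 1.48e-05), and -3.34 after rescaling. PNO1, an RNA-binding partner of the nuclease for the last 18S cut, had 29.4, 28.4 and 15.9 RPKM with the empty vector, 1.01, 1.87 and 0.658 under the hPRM1 label and 0, 6.94 and 18.6 with hPRM2. TSR1, a GTPase-like assembly factor, had 23.5, 23.6 and 18.2 RPKM with the empty vector, 0.933, 1.64 and 0.736 under the hPRM1 label and 12.6, 40.7 and 25.7 with hPRM2. Both were called lower in the libraries labelled hPRM1 on both scales, at -3.55 and -3.45 (-1.64 and -1.55 after rescaling). Of the other members of this role, NOL10, NOL11, NOC4L, WDR3, WDR75 and DDX47 had log2 fold changes from -3.73 to -2.99.

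All 16 members grouped here under large subunit assembly, DDX10 among them, were called lower in the libraries labelled hPRM1 (median -3.30 on the log2 scale). After rescaling 10 were (median -1.15). Of all genes, 62.5% were called lower (median -1.72) and 25.1% after rescaling (median 0.14). The grouping came from a list, and the place of DDX10 in it was not tested. BOP1, PES1 and WDR12 form the PeBoW complex, which is needed for processing of the large subunit rRNAs. BOP1 had 33.5, 40.6 and 52.3 RPKM with the empty vector, 1.58, 2.66 and 2.05 under the hPRM1 label and 4.04, 13.0 and 24.2 with hPRM2. PES1 had 51.2, 62.0 and 63.6 RPKM with the empty vector, 3.64, 7.33 and 3.83 under the hPRM1 label and 14.5, 30.3 and 53.9 with hPRM2. WDR12 had 11.2, 23.7 and 34.6 RPKM with the empty vector, 2.09, 0.484 and 0.439 under the hPRM1 label and 0.432, 6.80 and 4.99 with hPRM2. All 3 were called lower in the libraries labelled hPRM1, at -3.79, -3.38 and -3.55, and again after rescaling (-1.66, -1.08 and -1.76). With hPRM2 they stood at -1.81, -0.999 and -2.44, with adjusted p of 0.154, 0.27 and 0.135, so that none passed the test, and all 3 were lowest in replicate 1.

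NOP2, an rRNA methyltransferase, had 25.3, 23.0 and 34.7 RPKM with the empty vector, 3.94, 3.22 and 5.42 under the hPRM1 label and 33.2, 15.5 and 30.5 with hPRM2. NOP2 fell under the hPRM1 label, at -2.46 ± 0.26 (SE, adjusted p = 0.000153), but not after rescaling (-0.20). EBNA1BP2, an early pre-60S factor, had 92.2, 117 and 69.9 RPKM with the empty vector, 3.50, 4.65 and 4.46 under the hPRM1 label and 186, 118 and 125 with hPRM2. EBNA1BP2 was called lower under the hPRM1 label at -4.15 ± 0.25 (SE, adjusted p = 1.48e-05), and -1.85 after rescaling, and its hPRM2 values all lay above the empty vector, at 0.62 ± 0.35 (SE, adjusted p = 0.308), which did not pass the test. DDX10, a DEAD-box RNA helicase, had 51.6, 50.6 and 34.5 RPKM with the empty vector, 3.23, 3.70 and 1.84 under the hPRM1 label and 56.0, 46.3 and 76.4 with hPRM2. DDX10 was called lower in the libraries labelled hPRM1 at -3.58 ± 0.29 (SE, adjusted p = 4.31e-05), and -1.37 after rescaling. DDX18 and DDX56, helicases of the large subunit path, changed sign with the scaling: their log2 fold changes were -2.01 and -1.92 in RPKM but 0.46 and 0.47 after rescaling, when neither was called. DDX56 had 27.0, 62.9 and 69.2 RPKM with the empty vector, 23.4, 5.79 and 12.9 under the hPRM1 label and 280.2, 22.0 and 33.2 with hPRM2. FTSJ3, an rRNA methyltransferase of the pre-rRNA processing path, had 19.1, 20.8 and 17.9 RPKM with the empty vector, 2.75, 2.87 and 3.64 under the hPRM1 label and 0, 18.2 and 23.0 with hPRM2. In both, hPRM2 replicate 1 stood apart from the other hPRM2 libraries, above them for DDX56 and at 0 for FTSJ3. Apart from DDX18, the members of this role not given by library, NOP16, NOC2L, NOC3L, RRP1, LAS1L and NIP7, lay between -4.14 and -2.31, like FTSJ3.

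DDX21 is a helicase that acts in polymerase I transcription and in pre-rRNA processing, and had 217, 238 and 175 RPKM with the empty vector, 13.3, 16.7 and 13.6 under the hPRM1 label and 107, 148 and 169.7 with hPRM2. DDX21 fell under the hPRM1 label, at -3.76 ± 0.20 (SE, adjusted p = 9.37e-06), and -1.32 after rescaling. With hPRM2 it lay wholly below the empty vector at -0.58 ± 0.32 (SE, adjusted p = 0.285), which did not pass the test, and at -0.02 after rescaling.

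RRP12 was the 1 member called in hPRM2 against the empty vector. It encodes a HEAT-repeat protein of late pre-40S maturation and export, and is on chromosome 10, from 97356358 to 97426076 on the minus strand. It had 55.5, 85.1 and 49.3 RPKM with the empty vector, 4.19, 6.70 and 8.83 under the hPRM1 label and 320.2, 656 and 653 with hPRM2. All 3 hPRM2 libraries were over 3-fold above the highest empty vector library, and the libraries labelled hPRM1 were all below it. The log2 fold change with hPRM2 was 3.05 ± 0.41 (SE, adjusted p = 0.0226), and 3.59 after rescaling (adjusted p = 0.0199). The call was lost in the per-gene unequal-variance test (adjusted p = 0.158) and without any 1 of empty vector replicates 1, 2 and 3 (0.119, 0.069 and 0.136) or hPRM2 replicates 2 and 3 (0.117 and 0.0537), though not without hPRM2 replicate 1. Over all genes, the per-gene test called 0 of 13126. Without empty vector replicates 1, 2 and 3, 17 of 12119, 41 of 11983 and 15 of 12243 genes were called higher. Without hPRM2 replicates 2 and 3, 5 of 12430 and 5 of 12347 were. GENCODE 29 lists an antisense gene, AL355490.2, that overlaps an exon of RRP12, and the strand setting of the counting is not given in the sources used here.

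GNL3 and UTP3 had the next largest log2 fold changes with hPRM2. GNL3 encodes nucleostemin, a GTP-binding protein of the large subunit path, and had 69.2, 91.0 and 33.0 RPKM with the empty vector, 2.87, 1.46 and 1.71 under the hPRM1 label and 47.2, 388 and 289 with hPRM2. hPRM2 replicates 2 and 3 were over 3-fold above the highest empty vector library, while replicate 1 lay among the empty vector values. The log2 fold change was 1.54 ± 0.83 (SE, adjusted p = 0.28), and 2.48 (adjusted p = 0.0286) without hPRM2 replicate 1. UTP3, a processome factor, had 58.8, 66.8 and 48.9 RPKM with the empty vector, 7.20, 6.90 and 5.67 under the hPRM1 label and 92.6, 212 and 107 with hPRM2. Its hPRM2 libraries were all above the empty vector at 1.14 ± 0.41 (SE, adjusted p = 0.154), and at 1.37 (adjusted p = 0.0497) without replicate 1. In the libraries labelled hPRM1 both were called lower, GNL3 at -4.35 and UTP3 at -2.96 (-2.22 and -0.60 after rescaling, the latter under 2-fold).

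At the other end, WDR12 (-2.44), RRP9 (-2.20) and PNO1 (-2.20) had the lowest log2 fold changes with hPRM2, and none passed the test. Each had its lowest value in replicate 1, at 0 for RRP9 and PNO1. Without that library, HEATR1 alone was called lower (-1.30, adjusted p = 0.0478), and 3 members, RRP12, GNL3 and UTP3, were called higher. Of all 12825 genes tested without it, 1577 were called lower and 680 higher.

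Between the libraries labelled hPRM1 and hPRM2, 40 of the 49 members tested were called lower in the former and none higher, against 37% and 16% of 11756 genes. UTP20 was too low to be tested in this comparison. The members' median log2 fold change was -2.67, against -0.97 over all genes, and the groups did not overlap in 41 members, as in 62% of all genes tested. UTP15, WDR3 and BYSL, below 1 RPKM in every library labelled hPRM1, passed the filter through hPRM2 alone, which fixed their non-overlap and direction. The lowest were RRP12 at -6.14 ± 0.43 (SE, adjusted p = 0.000179), NPM1 at -6.14 ± 0.60 (SE, adjusted p = 0.000499) and GNL3 at -5.90 ± 0.82 (SE, adjusted p = 0.00167), which after rescaling stood at -4.33, -4.25 and -4.31. The 9 that were not called were NOL6, WDR12, DDX56, RRP9, FTSJ3, LYAR, TCOF1, UBTF and PNO1, with log2 fold changes from -2.20 to -0.44. The values nearest 0 were those of NOL6 (-0.44), TCOF1 (-0.52) and LYAR (-0.73), with adjusted p of 0.614, 0.431 and 0.575. These 3 turned positive after rescaling, at 0.77, 1.40 and 1.12, as did FTSJ3 (0.50), UBTF (0.47), RRP9 (0.22) and LAS1L (0.065), and none of the 7 was called there. After rescaling 20 members were called lower and none higher, against 18.5% and 30.8% of all genes, with a median of -1.07 for the members and 0.55 for all genes.

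**Figure D4:**
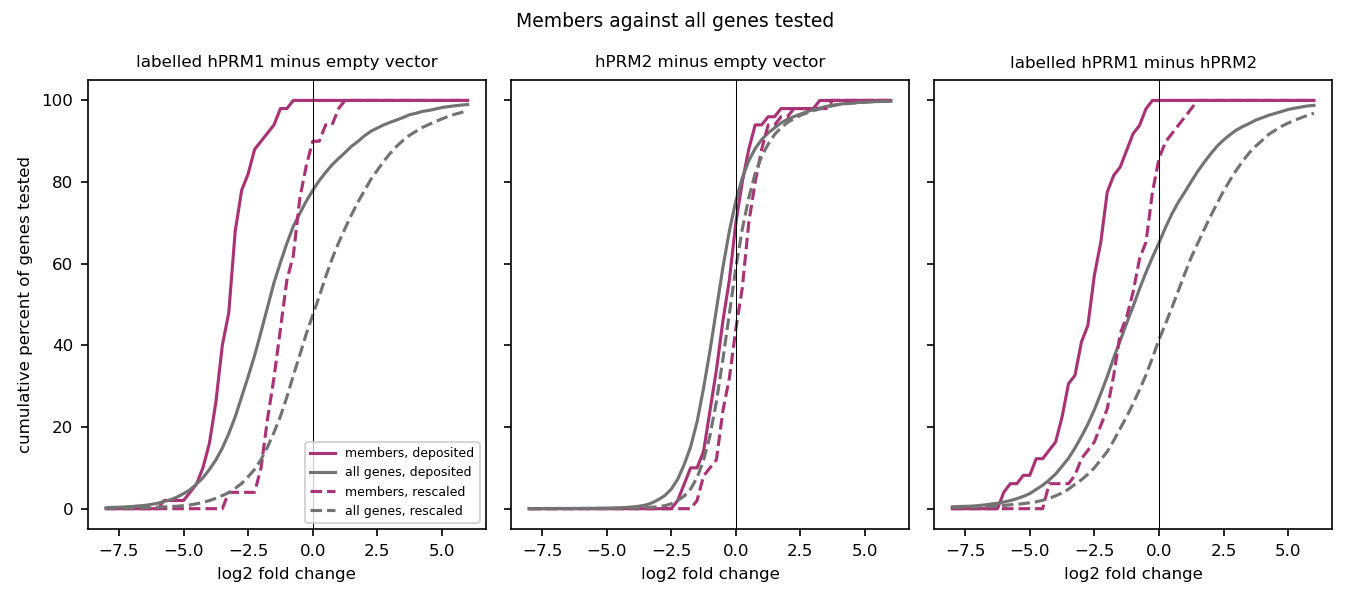
Cumulative percent of genes at or below each log2 fold change, for the members (purple) and all genes tested (grey), in RPKM as deposited (solid) and after rescaling (dashed), in the 3 comparisons. The members' curve lies left of that of all genes around its middle on both scales for the 2 comparisons with the libraries labelled hPRM1 (medians -3.23 against -1.72, and -2.67 against -0.97, in RPKM) and slightly right of it for hPRM2 against the empty vector (-0.41 against -0.72).

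Other genes of ribosome production were mostly called lower in the libraries labelled hPRM1 in RPKM as deposited, where 62.5% of all genes were, but not after rescaling, where 25.1% of all genes were. Of 97 further ribosome biogenesis genes, among them the polymerase I subunits, the exosome and other processome and pre-60S factors, 89 were called lower in the libraries labelled hPRM1 and none higher (median -2.88, and 41 lower and 8 higher after rescaling). With hPRM2 PPAN (2.27, SE 0.33, adjusted p = 0.0278) and SENP3 (3.30, SE 0.55, adjusted p = 0.0374) were called higher and none lower (median -0.54). Of all genes, 1.36% were called higher and 1.37% lower in that comparison (median -0.72). PPAN is a pre-60S factor, and SENP3 is a SUMO protease of the nucleolus. In the libraries labelled hPRM1 against hPRM2, 70 of 95 were called lower (median -2.39), against 37% of all genes, and 29 after rescaling, against 18.5%. Of 77 cytosolic ribosomal protein genes tested, 72 were called lower in the libraries labelled hPRM1 (median -3.32, and 35 lower and 4 higher after rescaling). With hPRM2 none of 78 was called (median 0.24), and 13 had an unadjusted p under 0.05, as did 3351 of all 13126 genes. After median-of-ratios rescaling 7 were called higher and none lower (median 0.81), against 1.63% and 0.442% of all genes (median -0.20). After quantile normalization 3 were called lower and none higher (median -0.39), against 79 and 235 of all 13126 genes (median -0.42). The sign of this list's median therefore depended on the scaling, and after quantile normalization it lay near that of all genes.

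The fold changes were also set beside the promoters, as a description. In the libraries labelled hPRM1 the 19 with an E-box were at a median of -3.37 on the log2 scale and the 24 with a window and no E-box at -3.20 (-1.08 and -1.15 after rescaling). With hPRM2 these medians were -0.58 and -0.07, and -0.02 and 0.45 after rescaling, so that the second changed sign.

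Several members are hosts of small nucleolar RNA genes, which guide the same modifications. In GENCODE 29, 26 such genes lie inside 8 of the members on the same strand, among them 6 in GNL3, 5 in NOP56, 4 in NOP58 and 3 each in NCL and WDR43. Exons of 9 members overlap an exon of another gene on the same strand and those of 20 members one on the opposite strand, so that reads of these genes may be shared. NPM1 has 49 numbered pseudogenes in the table, which together had mean values of 8.72 RPKM with the empty vector, 0.664 in the libraries labelled hPRM1 and 39.9 with hPRM2, a small part of the NPM1 level itself.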

How the data were processed

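Per the labels, the 9 libraries, 3 per group, hold RNA of transfected HEK293T cells, which the marker values of the 3 libraries labelled hPRM1 go against. The authors counted reads of 3′-end libraries with nf-core/rnaseq (FastQC, Cutadapt, STAR and Salmon, and hg38 per the labels, versions not given in the sources used here), removed mitochondrial genes, divided by library total and gene length, and deposited RPKM for 57338 genes, without counts. Of the identifiers, 98.6% had a symbol, and 0 columns of sample values were left unused. Being relative to a library total, RPKM shift together when a few transcripts take much of a library.

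Here log2(RPKM + 1) was compared for 3 pairs of groups in R 4.3.3 with limma 3.58.1 (eBayes with trend and robust), over genes with at least 1 RPKM in at least 3 of the 6 libraries, with Benjamini-Hochberg adjustment over all genes tested. A gene with an adjusted p of 0.05 or less and a 2-fold change or more was called. Adding 1 understates the change of low genes. Sums over members were tested by exact permutation of the libraries, two-sided. Reads per library were estimated from the step that 1 read makes in RPKM of 13863 single-transcript genes of GENCODE 29 and cover counting error only. Whole reads were not recovered for most genes, so no count test was run. Scripts were tested on simulated data. Python 3.11.15, with numpy 2.4.6, pandas 2.3.3, SciPy 1.17.1 and matplotlib 3.10.9, served for the rest.

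Members, roles, other lists, markers and motifs were chosen with earlier results of these data known. Values in every library were given for fixed representatives of each role, for the 3 largest and 3 smallest log2 fold changes per comparison, and for members whose call differed from most. The alternatives changed the pseudocount (0.1 or 5), the filter (none, or 10 RPKM), the scaling (median-of-ratios or quantile) or the model (all 9 libraries together, replicate block, no fold threshold, per-gene unequal-variance test), or left out 1 library. Median-of-ratios sums were added after seeing the data. Protein sequences and promoters without a RefSeq entry were not analysed here.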

Additional observations from a re-analysis of the deposited data

How the results depend on the processing

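For the libraries labelled hPRM1 against the empty vector, median-of-ratios rescaling left 28 members called lower and 1 higher, and the members' median log2 fold change of -3.23 became -1.11, or -1.68 after quantile normalization. The pseudocount moved it to -3.77 (0.1) and -2.52 (5). Among the called members, DDX18 (0.46), DDX56 (0.47), TCOF1 (1.10) and UBTF (0.91) turned positive after median-of-ratios rescaling, and TCOF1 (0.40) and UBTF (0.26) also after quantile normalization. With NOL6, which was not called (0.75 after median-of-ratios rescaling), 5 members were positive after that rescaling and 3 after quantile normalization. For hPRM2 against the empty vector, that rescaling turned the median from -0.41 to 0.092. There 1 member, WDR75, was called lower in the fit of all 9 libraries, 0 were called higher in the per-gene unequal-variance test, and leaving out 1 library gave 0 to 1 lower and 0 to 3 higher. Both ends at 1 and 3 came without hPRM2 replicate 1, when 1577 of 12825 genes were called lower and 680 higher. Over all 13126 genes, the fit of all 9 libraries called 1618 lower and 507 higher, and the per-gene test called 0. For the libraries labelled hPRM1 against hPRM2, the 40 lower calls became 20 after rescaling, 25 after quantile normalization and 24 in the per-gene test. Over all 11756 genes tested, lower calls went from 4355 to 2173, 2572 and 2388 under these settings. The members' median of -2.67 became -1.07 after rescaling and -1.59 after quantile normalization. It was -3.04 and -1.92 with pseudocounts of 0.1 and 5, and -3.13 with a minimum of 10 RPKM. LAS1L, called at -1.69, turned to 0.065 after rescaling, and NOL6, TCOF1, LYAR, FTSJ3, UBTF and RRP9, not called, turned positive as well. Leaving out 1 library gave 44 to 49 lower calls among 46 to 50 members tested against the empty vector. Against hPRM2 it gave 31 to 44 among 45 to 49 members tested. Over all genes, lower calls ran from 5606 of 10512 to 8478 of 12365 against the empty vector. Against hPRM2 they ran from 2912 of 9926 to 4352 of 10345. The causes were not tested.

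Same-numbered libraries did not deviate together (correlations of their deviations from -0.0783 to 0.0795, against -0.102 to 0.106 for different numbers). No pairing by number was therefore seen, but correlations over all genes cannot exclude a weak one, and the labels do not state any. With a replicate block, 49 members were called lower in the libraries labelled hPRM1 against the empty vector, 0 members were called in either direction with hPRM2 (RRP12 at an adjusted p of 0.0519), and 39 were lower against hPRM2. Over all genes in these comparisons, 8551 of 13588 were called lower, 8 lower and 49 higher of 13126, and 4019 lower of 11756. Of 784, 798 and 757 values of single members under the 16 alternatives of the 3 comparisons, 745, 787 and 651 had the same call as reported. Among these, 2, 51 and 13 values had no call in either fit but changed sign. With hPRM2, 25 members without a call changed sign in at least 1 alternative. A value of 0 allows up to 3 reads, worth 1.13 to 2.36 CPM in the hPRM2 libraries and 0.278 to 0.378 CPM with the empty vector.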
